A study of Mus musculus with 15 samples.

Results

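The Rab GTPases and sorting nexins of mouse bone marrow cells were followed across 5 groups of RNA sequencing libraries. The set held every gene whose symbol was Rab or Snx followed by a number, with a letter where paralogs carry one, and whose mean over all 15 libraries was at least 1 TPM. TPM is a length-corrected share of the transcripts of a library, scaled to the same total in each, so levels of different genes can be set side by side. Of the 56979 gene identifiers in the deposited table, 89 carried such a symbol and 80 of these reached the level, 51 Rab and 29 sorting nexin genes. Over the whole table, 14725 genes had a mean of at least 1 TPM. Rab15 and Rab37 lay just above the limit with means of 1.37 and 1.41 TPM. Rab40b and Rab42 lay just below it with 0.793 and 0.725 TPM, and Rab33a, Rab3c, Rab26, Rab25, Rab17, Rab9b and Snx31 were lower still. The limit used the overall level and no difference between groups. A gene could still reach it through some groups alone, as Rab36, Rab38, Rab39 and Snx20 did.

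Rab proteins are small GTPases that switch between a GTP-bound form on a membrane and a GDP-bound form held in the cytosol, and each one marks a particular compartment and recruits the effectors that move, tether or fuse its vesicles. Sorting nexins share a phox homology domain that binds phosphoinositides of endosomes. Many sort cargo out of endosomes, and those with a BAR domain bend the membrane into tubules, often together with the retromer complex. In macrophages these proteins serve phagosome maturation, antigen handling, receptor recycling and secretion.

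All libraries came from wild-type bone marrow cells. LPS_NZM were macrophages grown from bone marrow (BMDM) given lipopolysaccharide (LPS), a bacterial outer membrane component that activates macrophages, and then NZM. LPS were BMDM given LPS, and Control were BMDM given vehicle. Aged_NZM were BMSC labelled with H2HO and NZM, and Aged were BMSC labelled with H2HO. The labels explain neither NZM, H2HO nor the abbreviation BMSC, and give no dose, time, strain or age. Each group held 3 libraries, and means are given ± SD over these 3. BMSC that saw no H2HO, and BMDM that saw NZM alone, were not analysed here. What separates replicates is not stated in the labels, so every p-value reflects library-to-library spread that may be technical.

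The libraries detected 21360 to 23398 identifiers each, and their sequencing depth is unknown. The 8 macrophage markers examined summed to 21343 to 30208 TPM in the BMDM libraries and to 18.7 to 32.8 TPM in the BMSC libraries, where the defining gene Adgre1 was at or near 0. The BMDM libraries also held 10 stromal markers at 2271 to 2851 TPM in sum, against 3396 to 3472 TPM in Aged_NZM and 1000.6 to 1079.7 TPM in Aged. The stromal markers did not share a direction. Col1a1 averaged 863.2 TPM in Aged_NZM and 308.8 TPM in Aged, below its 1036 to 1303 TPM in the BMDM groups. Lepr, Eng and Vcam1 were also lower in both BMSC groups. Pdgfra, at 212.3 TPM in Aged_NZM and 91.4 TPM in Aged, was above its 6.01 to 6.72 TPM in the BMDM groups. Cxcl12, at 679.3 TPM in Aged_NZM and 127.9 TPM in Aged, was above its 45.7 to 59.2 TPM there. The other stromal markers were mixed, and Col1a1 and Col1a2 made up most of the BMDM sum. In such bulk libraries fewer cells of a type cannot be told apart from less RNA per cell.

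Changes are given on the log2(TPM + 1) scale, where low genes change less than in TPM, and were tested with limma. A gene was tested when it reached 1 TPM in at least 3 of the libraries fitted, and it was called when its p-value, adjusted by the Benjamini-Hochberg method over all tested genes, was under 0.05. TPM are shares, and the median change of all tested genes was -0.48 for LPS against Control, 0.40 for LPS_NZM against LPS, -0.07 for LPS_NZM against Control and -0.18 for Aged_NZM against Aged. A second value, headed "centred", is therefore given after every library was set to the same median of its tested genes. Where the sign of the change differs between the scales, the direction of the gene is not settled by these data.

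Most tested members were called in each comparison, and so were most genes except in LPS_NZM against Control. In LPS against Control, 12 of 79 tested members rose and 49 fell, against a background of 15.2% and 65.6% of all 14486 tested genes. After centring, 41 members rose and 24 fell, against 36.5% and 29.1% of all genes (65.5% in either direction). The sorting nexins had the lower median change, -0.70 over 29 genes with 3 risen and 24 fallen, and the Rab genes had -0.17 over 50 genes with 9 risen and 25 fallen. That split between the families was not tested. Rab36 was below the limit for testing in BMDM.

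In LPS_NZM against LPS, 43 of 79 members rose and 18 fell, against 60.4% and 16.9% of all genes, with a median of 0.32 for the members. After centring, 23 rose and 38 fell, against 29.8% and 35.3% of all genes (65.1% in either direction). Of the sorting nexins, 22 rose and 4 fell (median 0.61), and of the Rab genes 21 rose and 14 fell (median 0.13). In LPS_NZM against Control, 19 members rose and 31 fell, against 18.6% and 29.1% of all genes, and the member median of -0.08 lay beside -0.07 for all genes. After centring 21 rose and 20 fell, against 24.9% and 22.0% (47.0% in either direction). In Aged_NZM against Aged, 22 of 73 tested members rose and 36 fell, against 21.6% and 48.9% of 13865 genes. After centring 28 rose and 18 fell, against 31.1% and 35.4% (66.5% in either direction). Counting both directions, 77.2%, 77.2%, 63.3% and 79.5% of the tested members were called in these 4 comparisons in turn, beside 80.8%, 77.3%, 47.7% and 70.5% of all tested genes. Before centring, the share of members called was near the background in the first 2 comparisons and above it in the others. After centring, by the counts above, it exceeded the background in the first 2 comparisons. In Aged_NZM against Aged it then lay below the background. These gaps were not tested. The results below concern which members moved and by how much. Counts by class or list are to be read beside the shares of all genes given for each comparison. The 3 BMDM comparisons share libraries, so their counts are not independent. In 18 of the 80 members every LPS_NZM library lay above every LPS and Control library, against 16.3% of all genes, and in 13 every LPS_NZM library lay below them, against 8.09%. In 13 members every LPS library lay above every LPS_NZM and Control library, against 12.7% of all genes, and in 38 below, against 55.4%.

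**Figure D1:**
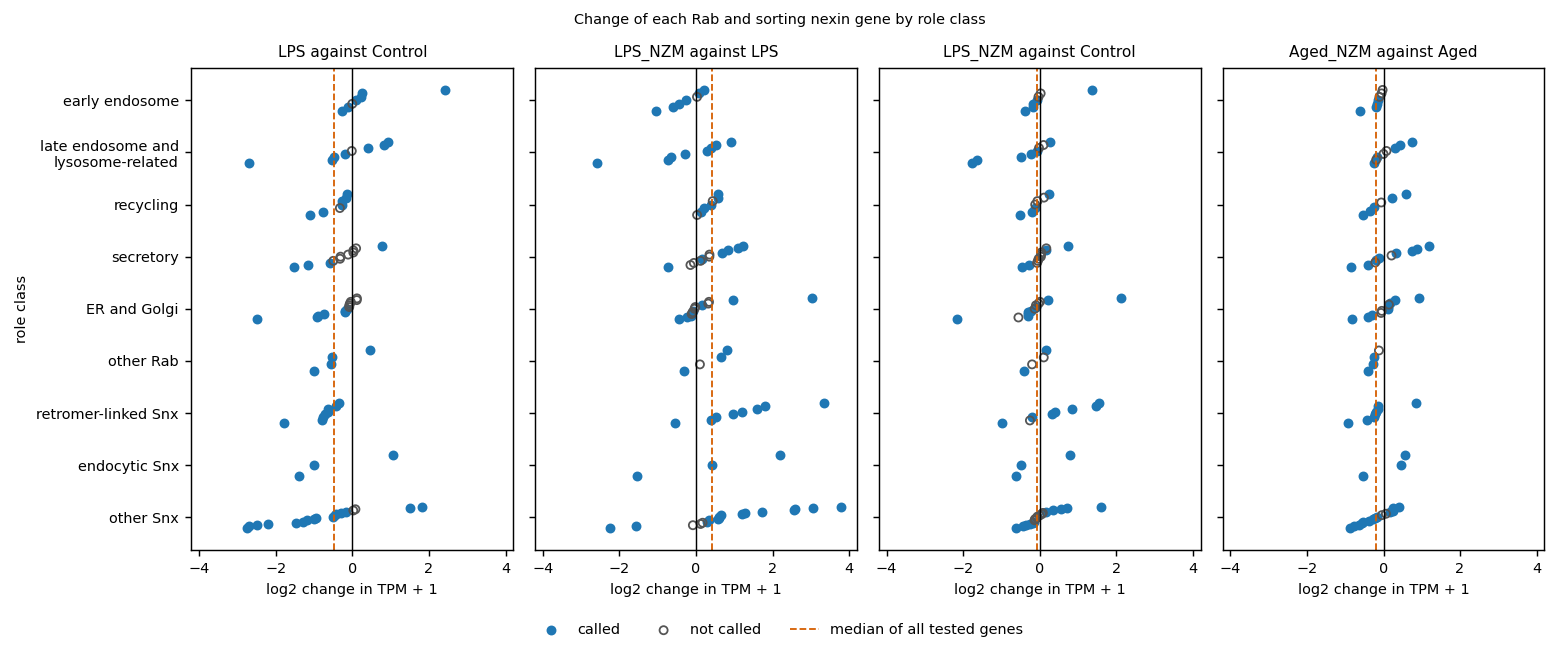
Change in log2(TPM + 1) of every tested member (points) in 4 comparisons, in rows by role class; filled points were called, open points were not, and the dashed line is the median of all tested genes. The sorting nexin rows spread from -2.74 to 1.81 in LPS against Control and from -2.24 to 3.79 in LPS_NZM against LPS, while most Rab genes lie between -1 and 1.

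In LPS_NZM the retromer-linked sorting nexin Snx5 had the highest mean level of the 80 members. Snx1 and Snx2 pair with Snx5 and Snx6 into BAR-domain dimers that coat tubules leaving the endosome, and Snx32 is a close relative of Snx5 and Snx6. Snx3 and its relative Snx12 consist mainly of a phox homology domain, and Snx3 brings retromer to the membrane. Snx27 links cargo with a PDZ-binding tail to retromer. In LPS_NZM against LPS, 7 of these 8 rose and Snx27 fell, and after centring 5 rose and 1 fell. All 8 fell in LPS against Control, and after centring 4 fell and 2 rose.

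Promoter windows are shown for Snx5, Snx8 and Snx6, which among the 3 BMDM groups were lowest in LPS and highest in LPS_NZM, and for Rab32, which among them was highest in LPS and lowest in LPS_NZM, so that the sequences can be read beside the values. These genes and the motifs were chosen after their values were seen. The sequences are RefSeq windows of build GRCm38.p6, from 250 bases before to 50 bases after the gene start on the gene's own strand. Capitals mark matches on either strand to an E-box (CACGTG), a GC box of the SP1 type (GGGCGG), a STAT6-type motif, an NF-kB-type motif, an AP-1-type motif (TGANTCA) and a PU.1-type motif (GAGGAAGT).
Snx5 (chr2:144270523-144270822, minus strand): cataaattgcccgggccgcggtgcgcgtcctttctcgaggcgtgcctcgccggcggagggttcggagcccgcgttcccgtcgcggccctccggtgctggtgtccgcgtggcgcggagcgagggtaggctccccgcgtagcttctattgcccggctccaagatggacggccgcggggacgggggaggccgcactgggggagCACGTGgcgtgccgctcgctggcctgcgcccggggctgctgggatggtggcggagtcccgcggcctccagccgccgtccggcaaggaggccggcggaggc
Snx8 (chr5:140389259-140389558, minus strand): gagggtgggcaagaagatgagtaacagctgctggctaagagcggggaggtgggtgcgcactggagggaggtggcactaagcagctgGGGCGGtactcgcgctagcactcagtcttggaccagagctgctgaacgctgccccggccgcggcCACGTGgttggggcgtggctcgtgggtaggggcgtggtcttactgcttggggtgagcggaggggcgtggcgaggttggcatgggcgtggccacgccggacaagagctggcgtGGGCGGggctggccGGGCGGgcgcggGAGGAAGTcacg
Snx6 (chr12:54795613-54795912, minus strand): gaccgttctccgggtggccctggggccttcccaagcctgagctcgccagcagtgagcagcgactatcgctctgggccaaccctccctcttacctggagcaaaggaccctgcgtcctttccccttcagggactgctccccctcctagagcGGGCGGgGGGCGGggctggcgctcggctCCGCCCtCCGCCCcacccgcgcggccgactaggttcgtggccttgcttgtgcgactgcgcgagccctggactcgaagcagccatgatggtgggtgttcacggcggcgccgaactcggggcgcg
Rab32 (chr10:10558158-10558457, minus strand): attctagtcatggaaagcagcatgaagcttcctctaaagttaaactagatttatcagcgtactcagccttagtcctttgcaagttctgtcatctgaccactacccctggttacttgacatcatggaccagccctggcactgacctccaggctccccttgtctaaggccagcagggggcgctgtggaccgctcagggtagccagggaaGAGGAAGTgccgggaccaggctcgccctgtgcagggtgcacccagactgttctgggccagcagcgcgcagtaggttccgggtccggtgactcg
The E-box stood in the Snx5 window at position -50 and in the Snx8 window at position -100, counted from the gene start. The Snx6 window held 4 GC boxes, and the Rab32 window held only a PU.1-type match. The Snx8 window also held GC boxes and a PU.1-type match, the latter at position 39. Over the set, 62 of the 80 members had 79 windows in the table. An E-box was found in 11.4% of these and in 7.15% of all 32851 windows, and a GC box in 70.9% against 35.7%. The other motifs were found in 3.8% (STAT6-type), 3.8% (NF-kB-type), 6.33% (AP-1-type) and 3.8% (PU.1-type) of member windows, against 6.95%, 1.63%, 7.81% and 3.2% of all windows. The windows of all genes were not held to the limit of 1 TPM that the members passed, so these shares compare unlike sets. A match describes letters in the window and shows no binding.

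Snx5 read 1100.6, 1108.2 and 1130.0 TPM in LPS_NZM, 110.2, 111.6 and 108.2 TPM in LPS and 383.5, 377.1 and 375.4 TPM in Control. The LPS_NZM libraries were the highest and the LPS libraries the lowest, with no overlap between any of the 3 groups. Snx5 rose 10.1-fold in LPS_NZM over LPS (log2 change 3.33, SE 0.024, adjusted p = 3.66e-13, centred 2.86) and 2.94-fold over Control (log2 change 1.55, SE 0.024, adjusted p = 4.71e-11, centred 1.64). It fell in LPS against Control (log2 change -1.77, SE 0.024, adjusted p = 3.35e-12, centred -1.23).

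Snx2 read 750.7, 769.8 and 789.0 TPM in LPS_NZM, 261.9, 246.8 and 254.0 TPM in LPS and 431.4, 426.6 and 438.2 TPM in Control. Snx6 read 308.1, 312.7 and 306.6 TPM in LPS_NZM, 94.4, 89.0 and 80.9 TPM in LPS and 110.8, 109.8 and 115.1 TPM in Control. In both, the LPS_NZM libraries stood above all others and the LPS libraries below Control. Against LPS, the LPS_NZM level of Snx2 was 3.03-fold (log2 change 1.59, SE 0.03, adjusted p = 2.55e-11, centred 1.13) and that of Snx6 3.51-fold (log2 change 1.80, SE 0.05, adjusted p = 3.78e-10, centred 1.34). Against Control, Snx2 rose by 0.83 and Snx6 by 1.46 on the log2 scale. The fall of Snx2 in LPS against Control was -0.76 (-0.22 centred), whereas that of Snx6 was -0.34 and turned to a rise of 0.20 after centring.

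Snx1 read 260.5, 254.8 and 241.2 TPM in LPS_NZM, 123.0, 130.6 and 134.2 TPM in LPS and 200.5, 204.7 and 196.2 TPM in Control. Snx3 read 474.1, 451.3 and 439.8 TPM in LPS_NZM, 201.8, 199.0 and 194.3 TPM in LPS and 345.1, 342.8 and 352.2 TPM in Control. Both again had the order LPS_NZM, Control, LPS without overlap. The log2 change in LPS_NZM against LPS was 0.96 for Snx1 (0.49 centred) and 1.19 for Snx3 (0.73 centred). Against Control it was 0.33 and 0.39. Snx12 read 135.5, 129.9 and 136.0 TPM in LPS_NZM, 91.5, 94.5 and 95.0 TPM in LPS and 153.2, 157.9 and 148.8 TPM in Control. It rose against LPS by 0.51 (0.045 centred, not called) and fell against Control (-0.19).

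Snx27 went another way. Its values were 40.9, 39.3 and 43.0 TPM in LPS_NZM, 61.3, 61.8 and 60.2 TPM in LPS and 79.8, 89.1 and 80.3 TPM in Control. Control was highest and LPS_NZM lowest, and no groups overlapped. Snx27 fell in LPS_NZM against LPS (log2 change -0.56, SE 0.05, adjusted p = 2.69e-06, centred -1.03) and against Control (log2 change -0.998, adjusted p = 1.63e-07, centred -0.92). With LPS it fell against Control by -0.44, which turned to 0.11 after centring. Snx32 stayed low in BMDM, at 3.71 ± 0.296 TPM in LPS_NZM, 2.6 ± 0.144 TPM in LPS and 4.72 ± 1.25 TPM in Control.

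**Figure D2:**
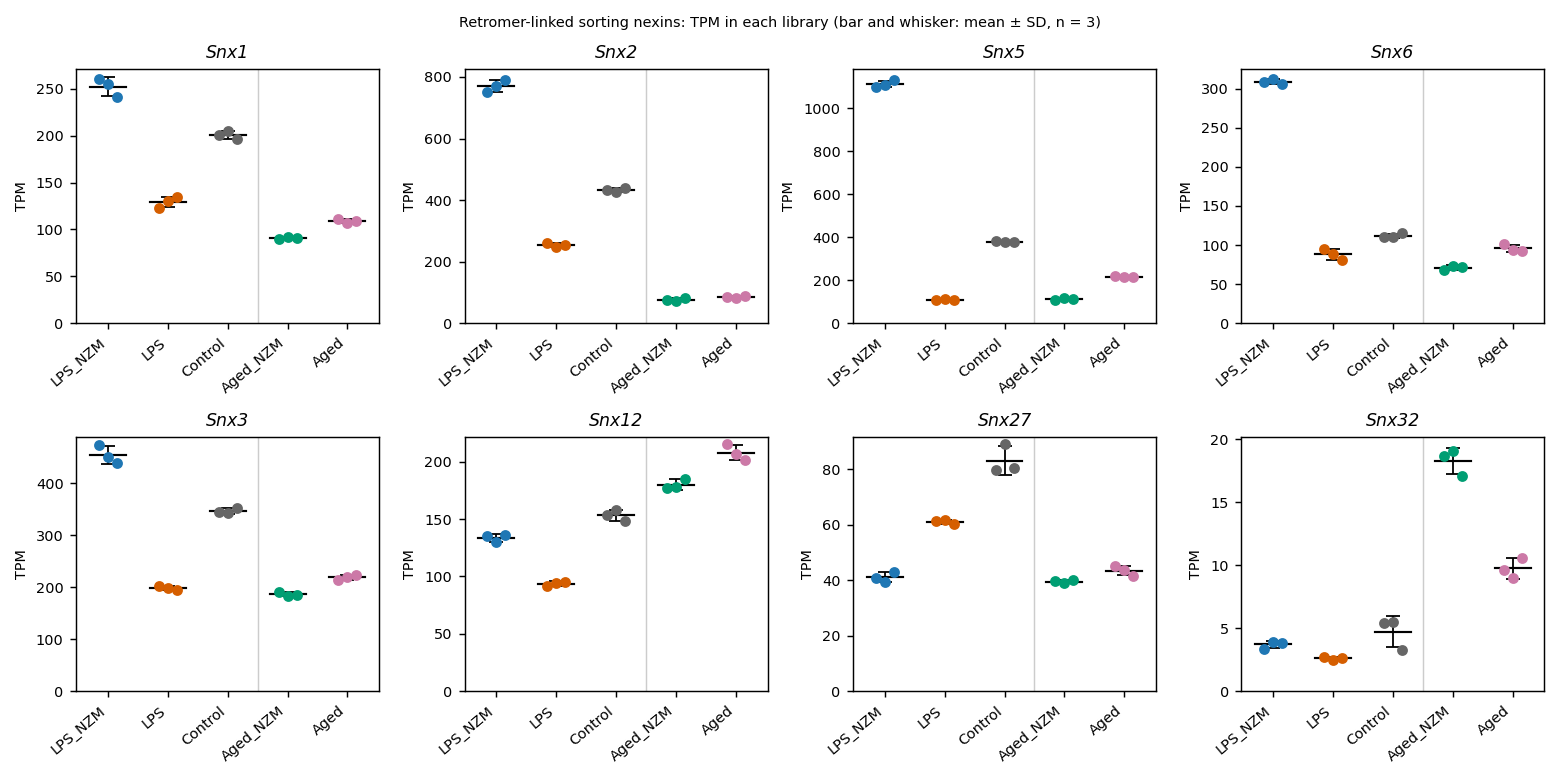
TPM of the 8 retromer-linked sorting nexins in each library (points), by group, with the mean and SD of 3 libraries. Snx5 averages 1113 TPM in LPS_NZM against 110.0 TPM in LPS and 378.7 TPM in Control, while in BMSC it averages 113.5 TPM in Aged_NZM and 215.8 TPM in Aged.

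Since the 4 BAR-domain members work as dimers, their summed level and their shares within it were also computed; shares within a library do not depend on the scaling. The sum of Snx1, Snx2, Snx5 and Snx6 was 2444.1 ± 23.5 TPM in LPS_NZM, 581.6 ± 6.83 TPM in LPS and 1123.2 ± 4.31 TPM in Control. Snx5 made up 45.5% ± 0.251 of the sum in LPS_NZM, 18.9% ± 0.343 in LPS and 33.7% ± 0.341 in Control. Snx2 took 31.5% in LPS_NZM, 43.7% in LPS and 38.5% in Control. In LPS the most abundant of the 4 was therefore Snx2, and in LPS_NZM it was Snx5.

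In BMSC the 4 had a lower sum with NZM. It was 351.3 ± 9.24 TPM in Aged_NZM and 505.1 ± 8.22 TPM in Aged, and Snx5 made up 32.3% ± 0.742 in Aged_NZM and 42.7% ± 0.406 in Aged. Snx5 read 108.5, 117.5 and 114.4 TPM in Aged_NZM and 218.6, 215.5 and 213.3 TPM in Aged (log2 change -0.92, SE 0.038, adjusted p = 4.16e-08, centred -0.76). Snx6 read 67.4, 73.1 and 71.9 TPM in Aged_NZM and 101.2, 93.4 and 92.8 TPM in Aged (log2 change -0.43, SE 0.048, adjusted p = 3.2e-05, centred -0.27). In both genes every Aged_NZM library lay below every Aged library. Snx1 (-0.26, -0.10 centred), Snx3 (-0.23, -0.074 centred, not called) and Snx12 (-0.21, -0.046 centred, not called) fell. The small falls of Snx2 (-0.15) and Snx27 (-0.13) turned to 0.0097 and 0.025 after centring, and neither call held without Aged_NZM replicate 2 (adjusted p = 0.0815 and 0.068). Leaving out Aged replicate 3 ended that of Snx2 (adjusted p = 0.0725), and leaving out Aged replicate 2 that of Snx27 (adjusted p = 0.0564). Snx1 read 89.3, 91.5 and 91.0 TPM in Aged_NZM and 110.7, 106.7 and 108.5 TPM in Aged. Snx3 read 190.7, 183.9 and 184.4 TPM in Aged_NZM and 214.8, 219.0 and 223.9 TPM in Aged. Neither gene had an overlap between the groups. Snx2 read 75.7, 72.3 and 81.2 TPM in Aged_NZM and 83.8, 83.2 and 87.3 TPM in Aged. Snx27 read 39.6, 39.0 and 39.9 TPM in Aged_NZM and 45.1, 43.6 and 41.7 TPM in Aged. Snx32 alone of the 8 rose, reading 18.7, 19.1 and 17.1 TPM in Aged_NZM and 9.61, 9.02 and 10.6 TPM in Aged (log2 change 0.85, SE 0.073, adjusted p = 5.07e-06, centred 1.00).

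The core of retromer, the trimer of Vps35, Vps29 and Vps26a or Vps26b, was measured in the same libraries. Vps35 averaged 166.2 TPM in LPS_NZM, 122.9 TPM in LPS and 184.4 TPM in Control. Its log2 change was 0.43 in LPS_NZM against LPS and -0.15 in LPS_NZM against Control. The rise of Vps35 against LPS did not hold after centring. Of the 4 core genes, 3 rose in LPS_NZM against LPS and 1 was not called, while after centring 1 rose and 1 fell. All 4 core genes fell in LPS against Control, of which 1 fell and 2 rose after centring. In Aged_NZM against Aged all 4 fell on both scales, with a log2 change of -0.56 for Vps35 and -0.51 for Vps26a.

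Most other sorting nexins fell with LPS and were higher in LPS_NZM than in LPS. Of the 18, 14 fell and 2 rose in LPS against Control, against 65.6% and 15.2% of all tested genes. In LPS_NZM against LPS, 13 rose and 2 fell, against 60.4% and 16.9%. Most genes thus moved the same way. After centring, 9 fell and 6 rose with LPS, against 29.1% and 36.5% of all genes. In LPS_NZM against LPS 9 then rose and 5 fell, against 29.8% and 35.3%.

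Snx8, a BAR-domain nexin of early endosomes, read 159.2, 158.3 and 159.6 TPM in LPS_NZM, 18.8, 17.0 and 19.3 TPM in LPS and 107.2, 106.7 and 107.8 TPM in Control. LPS was lowest by a wide margin and LPS_NZM highest. The changes were -2.49 in LPS against Control (-1.94 centred), 3.05 in LPS_NZM against LPS (2.59 centred) and 0.56 in LPS_NZM against Control (0.65 centred), with adjusted p = 1.82e-11, 5.48e-12 and 4.67e-06. Snx29 read 36.3, 39.7 and 37.4 TPM in LPS_NZM, 1.65, 1.60 and 2.22 TPM in LPS and 11.4, 12.6 and 11.5 TPM in Control. It had the largest change of any member in LPS_NZM against LPS, 20.7-fold in mean TPM (log2 change 3.79, SE 0.09, adjusted p = 1.35e-10, centred 3.32), and stood above Control by 1.60.

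Snx24 and Snx30 also fell with LPS. Snx24, a small phox homology protein, read 29.0, 31.0 and 33.3 TPM in LPS_NZM, 4.34, 4.53 and 4.45 TPM in LPS and 33.1, 37.0 and 32.9 TPM in Control. Snx30, a BAR-domain partner of Snx4 in recycling from endosomes, read 28.4, 27.7 and 28.4 TPM in LPS_NZM, 3.94, 3.74 and 3.94 TPM in LPS and 30.7, 32.5 and 31.3 TPM in Control. LPS libraries were far below the others in both. In LPS against Control the log2 change was -2.70 for Snx24 and -2.74 for Snx30 (-2.15 and -2.19 centred). In LPS_NZM against LPS it was 2.56 and 2.58. Against Control, Snx24 was not called (-0.14, adjusted p = 0.118) and Snx30 was lower (-0.16), which was not called after centring.

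Snx4 itself averaged 69.4 ± 2.8 TPM in LPS_NZM, 73.6 ± 0.423 TPM in LPS and 69.6 ± 2.32 TPM in Control, and none of the 3 differences was called on the first scale. Snx7, another partner of Snx4, averaged 30.4 ± 0.445 TPM in LPS_NZM, 25.0 ± 0.63 TPM in LPS and 34.7 ± 2.92 TPM in Control. In LPS against Control the log2 change was 0.08 for Snx4, -0.45 for Snx7 and -2.74 for Snx30.

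Snx16, which acts in sorting of the epidermal growth factor receptor, read 23.1, 22.4 and 23.5 TPM in LPS_NZM, 6.86, 5.99 and 6.07 TPM in LPS and 13.2, 13.7 and 14.3 TPM in Control. It rose in LPS_NZM over both LPS (1.72) and Control (0.71). Snx17, the cargo adaptor of the retriever complex, had smaller changes, at 141.6 ± 2.37 TPM in LPS_NZM, 92.8 ± 3.28 TPM in LPS and 125.8 ± 3.09 TPM in Control. Snx13 and Snx14 are anchored in the endoplasmic reticulum, and Snx13 read 22.1, 22.7 and 23.5 TPM in LPS_NZM, 14.0, 14.3 and 13.8 TPM in LPS and 32.5, 36.6 and 37.2 TPM in Control. Both fell with LPS (log2 change -1.28 and -1.47) and were below Control in LPS_NZM (-0.61 and -0.26). Of the remaining nexins, Snx15 averaged 38.4 ± 2.24 TPM in LPS_NZM, 15.3 ± 0.934 TPM in LPS and 36.4 ± 3.8 TPM in Control and Snx19 24.5 ± 0.386 TPM in LPS_NZM, 16.2 ± 0.515 TPM in LPS and 23.6 ± 1.04 TPM in Control. Snx21 read 8.15, 7.85 and 8.38 TPM in LPS_NZM, 4.79, 5.18 and 4.96 TPM in LPS and 10.3, 10.4 and 11.2 TPM in Control. Snx11, Snx22 and Snx25 had log2 changes of at most 0.35 in absolute size in the 3 BMDM comparisons.

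A smaller number of members rose with LPS. Snx10, a phox homology protein needed for osteoclast function and endosome homeostasis, read 139.4, 138.7 and 153.1 TPM in LPS_NZM, 677.4, 670.5 and 693.4 TPM in LPS and 182.0, 204.5 and 194.3 TPM in Control. Its LPS libraries stood far above the others, and LPS_NZM lay below Control. The changes were 1.81 in LPS against Control, -2.24 in LPS_NZM against LPS and -0.43 in LPS_NZM against Control (adjusted p = 3.4e-10, 7.53e-11 and 6.87e-05). Snx20, which binds the selectin ligand PSGL-1 in leukocytes, read 47.6, 47.1 and 49.9 TPM in LPS_NZM, 147.8, 148.8 and 140.3 TPM in LPS and 47.6, 49.6 and 55.8 TPM in Control. LPS_NZM and Control overlapped, and both lay below LPS. Snx20 rose by 1.499 with LPS and had a change of -1.58 in LPS_NZM against LPS, and LPS_NZM against Control was not called (-0.077, adjusted p = 0.294).

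The 3 endocytic nexins, which couple membrane curvature to dynamin and actin through an SH3 domain, did not move together. Snx9 read 167.7, 162.2 and 167.8 TPM in LPS_NZM, 36.3, 37.2 and 34.1 TPM in LPS and 93.0, 99.8 and 94.3 TPM in Control. Snx18 read 49.5, 49.0 and 50.6 TPM in LPS_NZM, 147.6, 147.2 and 148.2 TPM in LPS and 67.3, 72.1 and 69.8 TPM in Control. The order of the groups in Snx18 was the reverse of that in Snx9. In LPS against Control, Snx9 fell by 1.39 and Snx18 rose by 1.07 (-0.84 and 1.62 centred). In LPS_NZM against LPS, Snx9 rose by 2.18 and Snx18 fell by 1.55 (1.71 and -2.02 centred). Snx33 was lower, at 5.13, 5.48 and 5.96 TPM in LPS_NZM, 3.60, 3.77 and 4.45 TPM in LPS and 8.69, 9.84 and 8.35 TPM in Control. Against Control, Snx9 was higher in LPS_NZM (0.79), and Snx18 (-0.48) and Snx33 (-0.61) were lower.

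**Figure D3:**
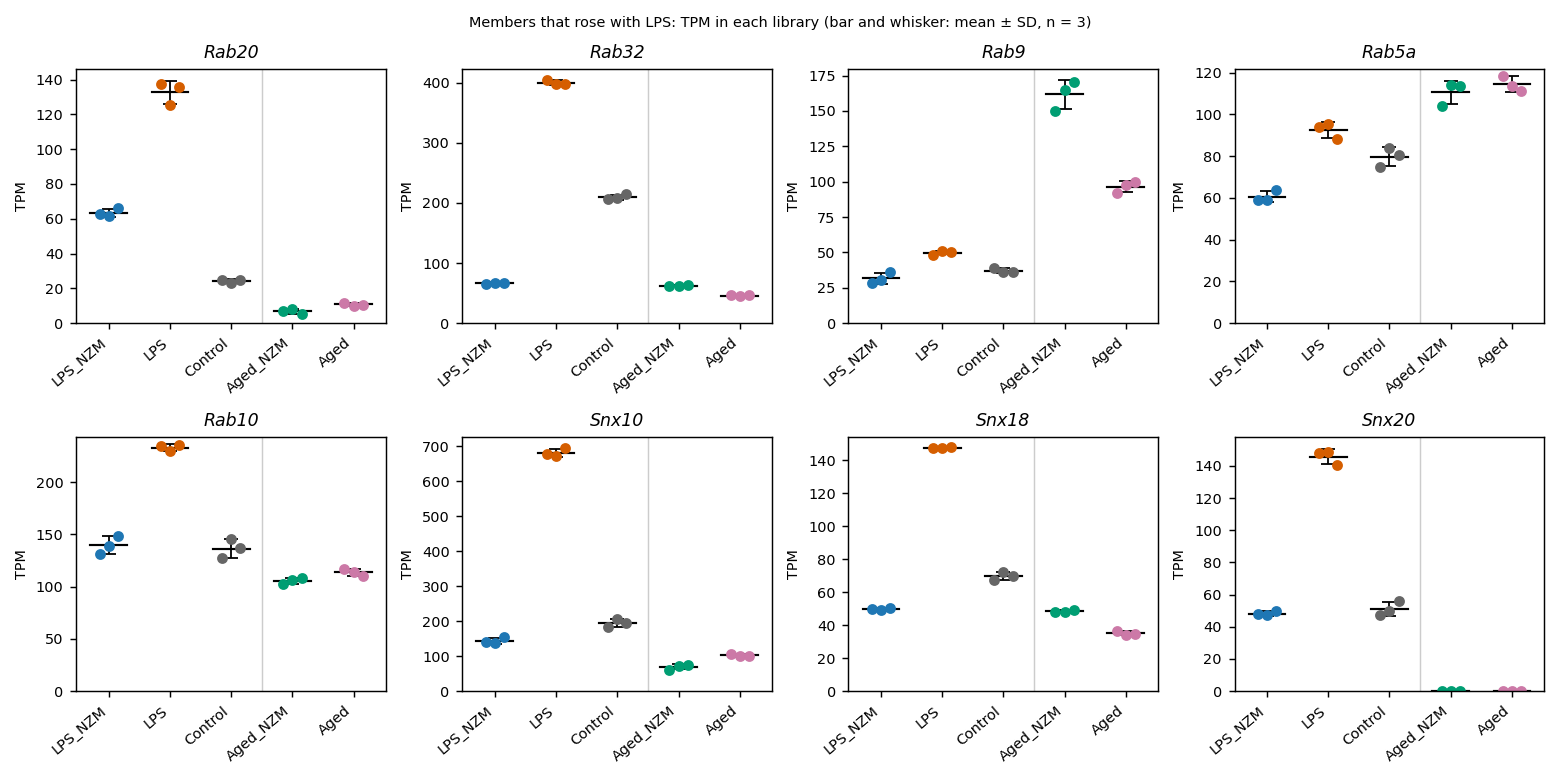
TPM of 8 of the 12 members called higher in LPS than in Control, in each library (points) with the mean and SD of 3 libraries per group. In all 8 panels the LPS libraries lie above the LPS_NZM and the Control libraries, the BMSC groups stand at the right of each panel, and Rab20 averages 63.4 TPM in LPS_NZM against 132.7 TPM in LPS and 24.2 TPM in Control.

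The early endosomal Rab genes included the largest rise with LPS. Rab20, which promotes phagosome maturation in macrophages, read 62.5, 61.4 and 66.2 TPM in LPS_NZM, 137.2, 125.2 and 135.7 TPM in LPS and 24.9, 23.1 and 24.6 TPM in Control. The 3 groups did not overlap, with LPS highest and Control lowest. Rab20 rose 5.48-fold with LPS (log2 change 2.41, SE 0.049, adjusted p = 4.59e-11, centred 2.95), fell in LPS_NZM against LPS (log2 change -1.05, SE 0.049, adjusted p = 1.78e-08, centred -1.52) and was above Control in LPS_NZM (log2 change 1.35, SE 0.049, adjusted p = 1.51e-08, centred 1.44).

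The 3 Rab5 genes, whose products drive fusion of early endosomes, differed from each other. Rab5a read 59.0, 59.2 and 63.5 TPM in LPS_NZM, 94.0, 95.4 and 88.4 TPM in LPS and 74.8, 83.7 and 80.5 TPM in Control. It rose with LPS by 0.22 (0.76 centred) and fell in LPS_NZM against LPS (-0.60) and against Control (-0.39). Rab5c, the most abundant of the 3, read 483.4, 479.8 and 479.5 TPM in LPS_NZM, 459.5, 454.2 and 447.2 TPM in LPS and 485.2, 496.2 and 495.8 TPM in Control, and Rab5b read 107.6, 107.0 and 104.9 TPM in LPS_NZM, 91.8, 91.5 and 94.9 TPM in LPS and 111.8, 115.7 and 111.6 TPM in Control. The small falls of Rab5b and Rab5c with LPS (-0.28 and -0.12) became rises after centring (0.26 and 0.43), and the small rises in LPS_NZM against LPS (0.20 and 0.084) became falls (-0.27 and -0.38). Within the summed Rab5 level, Rab5a made up 9.35% ± 0.397 in LPS_NZM, 14.5% ± 0.437 in LPS and 11.6% ± 0.459 in Control, without overlap between the groups.

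Rab22a, which acts between early endosomes and recycling, read 19.8, 19.9 and 21.9 TPM in LPS_NZM, 28.2, 28.5 and 27.4 TPM in LPS and 24.1, 23.9 and 22.5 TPM in Control, and Rab21, linked to integrin endocytosis, read 53.1, 53.4 and 53.2 TPM in LPS_NZM, 64.4, 64.4 and 64.1 TPM in LPS and 57.4, 63.2 and 59.0 TPM in Control. Both rose with LPS (0.25 and 0.10) and fell in LPS_NZM against LPS (-0.43 and -0.27). Rab31, which acts between the Golgi and endosomes, read 127.7, 127.9 and 128.3 TPM in LPS_NZM, 125.4, 125.8 and 126.1 TPM in LPS and 125.7, 126.8 and 125.4 TPM in Control. All 9 libraries lay close together, and Rab31 was not called in any of the 3 comparisons on the first scale. After centring it was 0.54 in LPS against Control and -0.44 in LPS_NZM against LPS, both called.

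Of the late endosomal and lysosome-related members, Rab32 had the largest fall in LPS_NZM against LPS. Rab32 and its relative Rab38 direct the formation of lysosome-related organelles such as melanosomes, and Rab32 also takes part in macrophage defence against intracellular bacteria. Rab32 read 64.8, 66.6 and 67.6 TPM in LPS_NZM, 404.1, 397.6 and 398.5 TPM in LPS and 206.3, 208.0 and 214.5 TPM in Control. LPS was highest and LPS_NZM lowest, without overlap. It rose in LPS against Control (log2 change 0.93, SE 0.028, adjusted p = 7.31e-10, centred 1.48) and fell in LPS_NZM against LPS (log2 change -2.57, SE 0.028, adjusted p = 1.04e-12, centred -3.04) and against Control (log2 change -1.64, SE 0.028, adjusted p = 9.32e-11, centred -1.56). Rab38 was far lower and read 2.27, 3.20 and 3.11 TPM in LPS_NZM, 4.73, 5.63 and 5.93 TPM in LPS and 2.28, 2.69 and 2.81 TPM in Control. It rose with LPS by 0.84 and fell by 0.74 in LPS_NZM against LPS, and LPS_NZM against Control was not called (0.097, adjusted p = 0.565).

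Rab7b, which moves cargo from late endosomes to the Golgi and restrains Toll-like receptor signalling in macrophages, read 33.7, 35.7 and 33.8 TPM in LPS_NZM, 17.8, 17.4 and 18.1 TPM in LPS and 124.0, 121.4 and 116.3 TPM in Control. Control lay far above both treated groups. Rab7b fell with LPS (log2 change -2.69, -2.15 centred), rose in LPS_NZM against LPS by 0.91 and was below Control in LPS_NZM (-1.78). Rab7, the late endosome and lysosome fusion GTPase, was the most abundant member on average and read 800.1, 794.0 and 797.3 TPM in LPS_NZM, 596.1, 609.6 and 618.9 TPM in LPS and 824.2, 858.0 and 841.2 TPM in Control. Its fall with LPS (-0.47) and its rise in LPS_NZM against LPS (0.39) turned round after centring (0.079 and -0.074). Rab7b made up 4.14% ± 0.141 of the summed Rab7 and Rab7b level in LPS_NZM, 2.84% ± 0.0658 in LPS and 12.5% ± 0.483 in Control.

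Rab9, which returns mannose 6-phosphate receptors to the Golgi, read 28.6, 30.6 and 35.8 TPM in LPS_NZM, 48.5, 51.0 and 50.3 TPM in LPS and 39.0, 36.1 and 36.3 TPM in Control. It rose with LPS by 0.42 and fell in LPS_NZM against LPS (-0.64) and against Control (-0.23, not called after centring). Rab29, a Golgi and lysosome Rab, read 27.9, 25.9 and 30.2 TPM in LPS_NZM, 33.8, 33.9 and 35.9 TPM in LPS and 40.2, 39.8 and 38.8 TPM in Control and fell in all 3 comparisons (log2 change -0.19 in LPS against Control, -0.29 in LPS_NZM against LPS and -0.49 in LPS_NZM against Control), although the change in LPS against Control turned to 0.35 after centring. Rab34, which positions lysosomes, read 91.2, 85.1 and 96.3 TPM in LPS_NZM, 60.0, 63.4 and 66.8 TPM in LPS and 91.6, 95.0 and 89.5 TPM in Control. Rab24, linked to autophagy, read 15.1, 12.5 and 13.0 TPM in LPS_NZM, 10.6, 10.4 and 11.8 TPM in LPS and 11.7, 11.8 and 9.74 TPM in Control.

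Summed markers of other cell types were as follows, although the genes of a list did not all move alike. The 5 osteoclast markers, of which 4 were at 1 TPM or above in every BMDM library, summed to 540.5 to 556.9 TPM in LPS_NZM, 647.5 to 649.4 TPM in LPS and 510.6 to 532.2 TPM in Control. The 8 neutrophil markers, all detected, summed to 1947.8 to 2347.8 TPM in LPS_NZM, 2221.9 to 2451.3 TPM in LPS and 1494.3 to 1687.6 TPM in Control. The 6 dendritic cell markers, of which 2 reached 1 TPM throughout, summed to 7.1 to 8.65 TPM in LPS_NZM, 25.5 to 33.9 TPM in LPS and 5.33 to 16.5 TPM in Control. The 3 endothelial markers, all detected, summed to 73.1 to 77.0 TPM in LPS_NZM, 26.2 to 29.1 TPM in LPS and 35.5 to 36.7 TPM in Control. The macrophage markers summed to 22927 to 23402 TPM in LPS_NZM, 21343 to 21531 TPM in LPS and 27992 to 30208 TPM in Control. The 6 B and T cell markers summed to at most 11.0 TPM in any BMDM group and the 3 erythroid markers to at most 127.6 TPM. Within the endothelial list, Pecam1 averaged 55.9 TPM in LPS_NZM, 11.5 TPM in LPS and 13.6 TPM in Control. Cdh5 was lowest in LPS_NZM, at 5.07 TPM against 5.86 TPM in LPS and 7.14 TPM in Control. The osteoclast marker Acp5 was highest in LPS, and Dcstamp was lowest there. Of the dendritic markers, Ccr7 was highest in LPS and Zbtb46 lowest. Of the neutrophil markers, Ngp, Camp and S100a8 were highest in LPS, and Mpo, Elane and Ltf lowest. The part of all these markers in the results was not tested.

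With LPS, Rab4a and Rab14 had the largest changes of the recycling Rab genes. Rab4a and Rab4b serve fast recycling, Rab11a and Rab11b the recycling endosome, Rab14 traffic between endosomes and the Golgi, and Rab35 fast recycling and cell shape. Of the 7, 6 fell in LPS against Control and Rab15 was not called, but 4 rose and 2 fell after centring. In LPS_NZM against LPS, 5 rose and the other two were not called, but after centring 3 fell and the rest were not called. Rab14 and Rab4a fell with LPS on both scales.

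Rab14 read 200.7, 193.7 and 213.9 TPM in LPS_NZM, 139.2, 134.3 and 137.7 TPM in LPS and 216.8, 243.8 and 235.5 TPM in Control. It fell with LPS (log2 change -0.75, SE 0.049, adjusted p = 2.27e-07, centred -0.21) and was higher in LPS_NZM than in LPS (0.56), although not after centring (0.096). Rab4a was low in BMDM and read 3.21, 3.57 and 1.83 TPM in LPS_NZM, 1.58, 1.17 and 1.90 TPM in LPS and 4.91, 3.88 and 4.55 TPM in Control. It fell with LPS (log2 change -1.10), and the call in LPS_NZM against Control was close to the threshold (-0.52, adjusted p = 0.0444) and was lost when any of 6 of the 9 libraries was left out (Control replicates 1, 2 and 3, LPS replicate 1 and LPS_NZM replicates 1 and 3; adjusted p = 0.0535 to 0.128). Its rise in LPS_NZM against LPS (0.58) was lost without LPS replicate 2 or without LPS_NZM replicate 1 or 2 (adjusted p = 0.0576 to 0.0665). Rab4b read 67.4, 67.3 and 67.3 TPM in LPS_NZM, 62.4, 59.1 and 61.6 TPM in LPS and 78.5, 68.9 and 72.5 TPM in Control. Rab35 read 78.8, 81.0 and 79.8 TPM in LPS_NZM, 62.4, 58.6 and 59.6 TPM in LPS and 69.3, 69.2 and 63.0 TPM in Control.

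Rab11a read 102.8, 108.0 and 105.5 TPM in LPS_NZM, 104.8, 104.5 and 101.1 TPM in LPS and 117.6, 113.1 and 113.2 TPM in Control, and Rab11b read 41.2, 36.5 and 38.9 TPM in LPS_NZM, 32.0, 34.4 and 33.8 TPM in LPS and 39.9, 40.7 and 41.0 TPM in Control. With LPS both fell (log2 change -0.15 for Rab11a and -0.27 for Rab11b), and both rose after centring (0.40 and 0.27). Rab11fip1, an effector of Rab11, is given beside them. Rab11fip1 averaged 7.18 TPM in LPS_NZM, 88.1 TPM in LPS and 4.79 TPM in Control, with a log2 change of 3.94 in LPS against Control and -3.45 in LPS_NZM against LPS. Rab11fip5, another effector, averaged 69.7 TPM in LPS_NZM, 15.1 TPM in LPS and 41.4 TPM in Control, a log2 change of -1.40 in LPS against Control and 2.14 in LPS_NZM against LPS. Rab15 averaged 2.27 ± 0.678 TPM in LPS_NZM, 1.42 ± 0.515 TPM in LPS and 2.09 ± 0.985 TPM in Control and was not called in any BMDM comparison.

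The secretory Rab genes were split. Of the 11, 1 rose and 3 fell in LPS against Control (5 and 2 after centring), and 5 rose and 1 fell in LPS_NZM against LPS (3 and 5 after centring). Rab10, which moves glucose transporters and Toll-like receptor 4 to the cell surface, read 131.3, 138.7 and 148.4 TPM in LPS_NZM, 234.4, 229.4 and 235.2 TPM in LPS and 127.0, 145.4 and 136.5 TPM in Control. The LPS libraries lay above all others, and LPS_NZM overlapped with Control. Rab10 rose with LPS by 0.77 and fell in LPS_NZM against LPS, with a log2 change of -0.74 (adjusted p = 4.45e-07 and 6.37e-07).

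Of the Rab3 genes, which prime vesicles for regulated exocytosis, Rab3d and Rab3a fell with LPS. Rab3d, found in secretory cells and mast cells, read 23.4, 22.5 and 22.1 TPM in LPS_NZM, 8.92, 9.08 and 9.17 TPM in LPS and 28.1, 27.7 and 27.5 TPM in Control. It fell with LPS (log2 change -1.52, SE 0.046, adjusted p = 7.7e-10, centred -0.97), was higher in LPS_NZM than in LPS (log2 change 1.23, SE 0.046, adjusted p = 3.37e-09, centred 0.77) and was lower in LPS_NZM than in Control (-0.28). Rab3a read 7.30, 7.59 and 7.01 TPM in LPS_NZM, 2.59, 3.71 and 2.55 TPM in LPS and 9.40, 8.22 and 5.92 TPM in Control, with changes of -1.16, 1.08 and, not called, -0.072. Rab3b averaged 1.9 ± 0.416 TPM in LPS_NZM, 1.27 ± 0.248 TPM in LPS and 1.83 ± 0.513 TPM in Control, and no comparison called it.

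Rab27a and Rab27b dock secretory granules and lysosome-related organelles at the plasma membrane, and neither was called in BMDM on the first scale. After centring, Rab27a was called at 0.64 in LPS against Control and -0.61 in LPS_NZM against LPS. Rab27a read 8.90, 8.37 and 8.94 TPM in LPS_NZM, 9.59, 9.89 and 9.85 TPM in LPS and 9.79, 9.08 and 8.39 TPM in Control. Rab27b read 4.86, 5.35 and 5.88 TPM in LPS_NZM, 4.22, 4.45 and 3.35 TPM in LPS and 3.40, 7.07 and 5.80 TPM in Control. Control replicate 1 was lower in Rab27b than the other two Control libraries. The 7 mast cell and basophil markers varied in the same libraries, summing to 123.0 to 211.4 TPM in LPS_NZM, 219.8 to 246.0 TPM in LPS and 14.0 to 522.2 TPM in Control. Cpa3, a mast cell protease, read 0.73, 331.78 and 115.88 TPM in Control replicates 1, 2 and 3. It averaged 90.4 TPM in LPS_NZM and 88.1 TPM in LPS. Hdc, of the same list, averaged 5.92 TPM in LPS_NZM, 76.0 TPM in LPS and 4.34 TPM in Control. The part of these markers in the Rab27b values was not tested. In LPS against Control the log2 change of Rab27b was -0.32 (adjusted p = 0.159), and without Control replicate 1 it was -0.57 (adjusted p = 0.00351).

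Rab44, a large Rab with calcium-binding motifs, read 14.8, 14.8 and 14.8 TPM in LPS_NZM, 6.90, 7.89 and 8.80 TPM in LPS and 8.63, 8.99 and 8.01 TPM in Control. It rose in LPS_NZM by 0.84 against LPS and 0.73 against Control, and LPS against Control was not called (-0.11). Rab8a and Rab8b, which carry cargo from the Golgi to the surface, are close paralogs. Rab8a averaged 59.3 ± 0.115 TPM in LPS_NZM, 61.8 ± 2.64 TPM in LPS and 60.5 ± 0.81 TPM in Control. Rab8b read 143.3, 146.6 and 160.7 TPM in LPS_NZM, 139.2, 135.1 and 133.4 TPM in LPS and 126.8, 136.8 and 136.9 TPM in Control. Rab8a was not called in BMDM on the first scale, and Rab8b was higher in LPS_NZM by 0.14 against LPS, which turned to -0.32 after centring. Rab13, which acts at cell junctions, read 8.81, 8.31 and 11.2 TPM in LPS_NZM, 8.29, 7.96 and 9.53 TPM in LPS and 12.6, 13.7 and 13.9 TPM in Control, and the low Rab37 averaged 2.78 ± 1.19 TPM in LPS_NZM, 1.33 ± 0.473 TPM in LPS and 2.29 ± 0.671 TPM in Control.

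In the endoplasmic reticulum and Golgi class, 7 of the 13 fell in LPS against Control and the others were not called, while 9 rose and 3 fell after centring. Rab39, a Golgi and phagosome Rab of macrophages, read 1.65, 1.32 and 2.43 TPM in LPS_NZM, 1.45, 1.12 and 1.09 TPM in LPS and 11.1, 12.4 and 10.9 TPM in Control. Control lay above both treated groups, which overlapped. Rab39 fell with LPS (log2 change -2.49) and was lower in LPS_NZM than in Control (-2.17), whereas LPS_NZM against LPS was not called (0.32, adjusted p = 0.0689). Rab19, a Golgi Rab, read 13.8, 13.4 and 14.9 TPM in LPS_NZM, 0.86, 0.70 and 0.94 TPM in LPS and 3.04, 2.03 and 2.44 TPM in Control. LPS_NZM was highest by far, 16.9-fold over LPS in mean TPM (log2 change 3.04, SE 0.12, adjusted p = 4.95e-09, centred 2.57) and 5.61-fold over Control (log2 change 2.11, SE 0.12, adjusted p = 3.74e-07, centred 2.19).

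Rab1b, which with Rab1a controls transport from the endoplasmic reticulum to the Golgi, read 619.6, 596.8 and 612.2 TPM in LPS_NZM, 312.0, 317.5 and 311.6 TPM in LPS and 534.5, 527.8 and 510.0 TPM in Control. It fell with LPS (log2 change -0.74) and rose in LPS_NZM by 0.96 against LPS and 0.22 against Control. Rab1a read 228.7, 238.3 and 240.2 TPM in LPS_NZM, 251.6, 250.1 and 250.3 TPM in LPS and 270.1, 278.6 and 279.9 TPM in Control. It was lowest in LPS_NZM, with log2 changes of -0.089 against LPS and -0.23 against Control, and its change of -0.14 in LPS against Control turned to 0.41 after centring. Without LPS_NZM replicate 1 its change against LPS was not called (-0.067, adjusted p = 0.0612). Rab1a and Rab1b are close paralogs, and how their shared reads were assigned is not given in the sources used here. Rab2a, Rab2b, Rab6a, Rab6b, Rab18, Rab30, Rab33b, Rab39b and Rab43 changed by less than 1 on the log2 scale in every BMDM comparison.

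Rab2a, which acts between the Golgi and the endoplasmic reticulum, read 147.8, 147.1 and 152.2 TPM in LPS_NZM, 134.4, 136.2 and 130.8 TPM in LPS and 147.4, 154.9 and 155.0 TPM in Control. Its paralog Rab2b read 15.2, 16.1 and 15.1 TPM in LPS_NZM, 17.1, 20.1 and 17.7 TPM in LPS and 18.3, 18.9 and 21.1 TPM in Control. The log2 change in LPS_NZM against LPS was 0.15 for Rab2a (-0.31 centred) and -0.23 for Rab2b (-0.70 centred), so that the direction of Rab2a differed between the scales. Rab6a, which carries vesicles back through the Golgi, read 72.8, 72.7 and 75.2 TPM in LPS_NZM, 80.6, 83.3 and 78.0 TPM in LPS and 88.2, 96.3 and 90.6 TPM in Control. Rab6b read 4.40, 3.47 and 2.58 TPM in LPS_NZM, 2.25, 2.96 and 2.33 TPM in LPS and 7.03, 6.71 and 3.45 TPM in Control. Rab33b, which acts in the Golgi and in autophagy, read 9.36, 9.46 and 9.34 TPM in LPS_NZM, 13.3, 13.6 and 12.2 TPM in LPS and 12.1, 11.5 and 12.3 TPM in Control. On both scales Rab6a (-0.13, -0.59 centred) and Rab33b (-0.43, -0.90 centred) fell in LPS_NZM against LPS, and Rab6b was not called on either (0.34, adjusted p = 0.206).

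Of the other Rab genes, Rab12, which sends transferrin receptor to lysosomes, read 48.1, 48.9 and 51.8 TPM in LPS_NZM, 64.4, 62.6 and 59.1 TPM in LPS and 42.2, 48.0 and 43.6 TPM in Control. It rose with LPS (log2 change 0.47, SE 0.056, adjusted p = 2.37e-05, centred 1.01) and fell in LPS_NZM against LPS (-0.32, -0.78 centred). Rab23, a regulator of hedgehog signalling, read 10.0, 9.04 and 10.1 TPM in LPS_NZM, 9.20, 8.64 and 9.12 TPM in LPS and 13.3, 14.2 and 12.6 TPM in Control. Rab28 read 33.6, 32.2 and 28.8 TPM in LPS_NZM, 19.6, 21.0 and 18.4 TPM in LPS and 27.5, 30.6 and 29.7 TPM in Control. Rab40c read 21.1, 19.7 and 18.3 TPM in LPS_NZM, 10.5, 9.41 and 12.6 TPM in LPS and 23.6, 21.4 and 23.2 TPM in Control. With LPS, Rab40c fell on both scales (-1.01, -0.47 centred), whereas the falls of Rab23 (-0.52) and Rab28 (-0.55) were not called after centring (0.023 and -0.0025).

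The comparison of Aged_NZM with Aged shows the response of BMSC to NZM after H2HO, as far as the labels tell. Of the tested members, only Rab3d changed by at least 1 on the log2 scale. In BMSC 7 members were too low for testing, namely Rab19, Rab39, Rab38, Snx20, Snx22, Rab15 and Rab37. The 10 stromal markers, of which 9 were at 1 TPM or above in every BMSC library, summed to 3396.0 to 3472.1 TPM in Aged_NZM and 1000.6 to 1079.7 TPM in Aged, and their part in these results was not tested.

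Of the secretory Rab genes, 4 rose and 4 fell in Aged_NZM against Aged. Rab3d read 20.6, 19.0 and 19.5 TPM in Aged_NZM and 8.35, 7.88 and 8.22 TPM in Aged (log2 change 1.18, SE 0.059, adjusted p = 1.43e-07, centred 1.34). Rab13 read 74.5, 76.2 and 77.3 TPM in Aged_NZM and 42.1, 44.1 and 38.1 TPM in Aged (log2 change 0.86, SE 0.054, adjusted p = 6.17e-07, centred 1.02). Rab3a read 25.3, 24.9 and 22.5 TPM in Aged_NZM and 14.4, 14.0 and 13.7 TPM in Aged (log2 change 0.74, SE 0.059, adjusted p = 2.89e-06, centred 0.90). No Aged_NZM library overlapped with an Aged library in any of the 3. Rab8b rose by 0.32, and Rab44 (-0.86), Rab27b (-0.41), Rab8a (-0.19) and Rab10 (-0.11) fell, where the falls of Rab27b, Rab8a and Rab10 were not called after centring and that of Rab10 turned to 0.053. The fall of Rab10 was also lost when replicate 1 or 2 of either group was left out (adjusted p = 0.0674 to 0.0869), and that of Rab27b without Aged replicate 1 or Aged_NZM replicate 2 (adjusted p = 0.0533 and 0.0517). Rab27a, at 1.15, 0.46 and 1.12 TPM in Aged_NZM and 1.01, 1.46 and 1.11 TPM in Aged, was not called. Rab8a read 45.8, 44.3 and 42.7 TPM in Aged_NZM and 50.1, 50.1 and 51.8 TPM in Aged. Rab10 read 102.5, 106.2 and 107.8 TPM in Aged_NZM and 116.9, 113.6 and 110.2 TPM in Aged. Rab27b, near the limit for testing, read 1.44, 1.28 and 1.69 TPM in Aged_NZM and 2.56, 2.14 and 2.11 TPM in Aged.

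Among the recycling genes, Rab4b read 37.0, 33.9 and 34.4 TPM in Aged_NZM and 21.3, 27.1 and 20.6 TPM in Aged and rose by 0.60 (0.76 centred), whereas Rab4a read 17.4, 18.6 and 18.6 TPM in Aged_NZM and 28.7, 26.0 and 25.6 TPM in Aged and fell by 0.53 (-0.37 centred). The paralogs thus moved in opposite directions on both scales. Rab11b read 54.7, 52.0 and 50.5 TPM in Aged_NZM and 46.5, 44.6 and 44.2 TPM in Aged and rose by 0.21, while Rab11a, at 70.9, 69.1 and 68.7 TPM in Aged_NZM and 68.1, 75.1 and 74.4 TPM in Aged, was not called (-0.058). Rab14 (-0.24) and Rab35 (-0.34) fell, and the fall of Rab35 was called after centring as well. Rab14 read 113.9, 119.8 and 125.0 TPM in Aged_NZM and 141.3, 144.9 and 138.6 TPM in Aged. Rab35 read 35.5, 34.5 and 33.9 TPM in Aged_NZM and 46.2, 43.7 and 42.8 TPM in Aged.

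Late endosomal genes rose in part. Rab9 read 150.1, 164.9 and 170.2 TPM in Aged_NZM and 92.1, 97.3 and 99.8 TPM in Aged (log2 change 0.74, SE 0.052, adjusted p = 1.41e-06, centred 0.90). Rab32 read 62.2, 62.5 and 63.2 TPM in Aged_NZM and 46.4, 44.5 and 46.7 TPM in Aged (log2 change 0.44, SE 0.038, adjusted p = 5.51e-06, centred 0.60). Both were higher in every Aged_NZM library than in any Aged library. Rab29 rose by 0.30, and Rab7 (-0.18) and Rab24 (-0.26) fell, neither called after centring. Rab7 read 503.7, 497.1 and 501.2 TPM in Aged_NZM and 580.4, 557.5 and 566.0 TPM in Aged. Rab29 read 16.3, 15.3 and 17.4 TPM in Aged_NZM and 14.7, 12.1 and 12.4 TPM in Aged. Rab24 read 53.0, 52.5 and 49.3 TPM in Aged_NZM and 64.2, 61.9 and 59.6 TPM in Aged. Rab7 was the most abundant of the late endosomal genes in BMSC. Rab38, at 0.06, 0.00 and 0.00 TPM in Aged_NZM and 0.08, 0.00 and 0.07 TPM in Aged, was all but absent. Rab7b, at 8.9 ± 0.586 TPM in Aged_NZM and 8.38 ± 0.668 TPM in Aged, and Rab34, at 263.0 ± 5.21 TPM in Aged_NZM and 263.0 ± 5.65 TPM in Aged, were not called on the first scale.

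Of the early endosomal genes, Rab20 read 7.09, 8.01 and 5.26 TPM in Aged_NZM and 11.4, 10.1 and 10.7 TPM in Aged and fell (log2 change -0.61, SE 0.12, adjusted p = 0.00167, centred -0.45). Rab5a, at 104.0, 113.9 and 113.5 TPM in Aged_NZM and 118.5, 113.5 and 111.3 TPM in Aged, was not called (-0.051), and Rab31, at 60.6, 62.3 and 58.6 TPM in Aged_NZM and 63.4, 60.8 and 60.3 TPM in Aged, was not called either (-0.024), although after centring both were called higher (0.11 and 0.14). Rab5b (-0.16), Rab5c (-0.19) and Rab21 (-0.17) fell, and these 3 were not called after centring. Rab5b read 116.5, 118.8 and 116.1 TPM in Aged_NZM and 133.4, 131.4 and 127.1 TPM in Aged. Rab5c read 182.4, 176.2 and 177.1 TPM in Aged_NZM and 216.7, 198.1 and 196.6 TPM in Aged. Rab21 read 48.3, 48.7 and 48.0 TPM in Aged_NZM and 56.7, 53.8 and 53.6 TPM in Aged.

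In the Golgi class, Rab30 rose by 0.92, at 4.74 ± 0.302 TPM in Aged_NZM and 2.05 ± 0.278 TPM in Aged, and Rab33b by 0.29, while Rab39b fell by 0.81, at 8.90, 10.4 and 10.2 TPM in Aged_NZM and 19.2, 17.5 and 17.3 TPM in Aged, as did Rab6b (-0.41) and Rab6a (-0.30). Rab33b read 17.1, 17.6 and 18.6 TPM in Aged_NZM and 14.8, 13.3 and 14.9 TPM in Aged. Rab6a read 88.6, 93.3 and 90.9 TPM in Aged_NZM and 114.4, 111.9 and 110.9 TPM in Aged. Rab6b read 7.46, 7.89 and 8.27 TPM in Aged_NZM and 12.3, 10.1 and 9.97 TPM in Aged. The falls of Rab6a and Rab6b were called after centring too (-0.14 and -0.25). Rab18 read 535.3, 562.4 and 576.8 TPM in Aged_NZM and 525.7, 499.9 and 508.3 TPM in Aged. Rab1a read 138.0, 144.0 and 150.8 TPM in Aged_NZM and 132.7, 132.1 and 133.5 TPM in Aged. Rab2b read 29.5, 28.2 and 30.2 TPM in Aged_NZM and 26.9, 25.4 and 25.8 TPM in Aged. These 3 rose by 0.13 (Rab18), 0.12 (Rab1a) and 0.16 (Rab2b), and by more after centring. On the first scale the call of Rab1a was lost without replicate 2 or 3 of either group (adjusted p = 0.0538 to 0.094). That of Rab18 was lost without Aged replicate 2 or Aged_NZM replicate 3 (adjusted p = 0.0551 and 0.0635), and that of Rab2b without Aged_NZM replicate 3 (adjusted p = 0.054). Of the other Rab genes, Rab28 read 43.3, 43.5 and 44.8 TPM in Aged_NZM and 57.6, 60.7 and 56.4 TPM in Aged and fell on both scales (-0.40, -0.24 centred). Rab23 read 18.9, 19.5 and 18.4 TPM in Aged_NZM and 23.6, 22.4 and 22.0 TPM in Aged. Rab40c read 22.0, 19.4 and 21.1 TPM in Aged_NZM and 26.1, 25.5 and 24.0 TPM in Aged. Both fell (-0.25 for Rab23 and -0.26 for Rab40c), and neither was called after centring.

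Sorting nexins again moved both ways. Snx8 read 13.5, 13.8 and 13.2 TPM in Aged_NZM and 26.3, 25.1 and 25.0 TPM in Aged (log2 change -0.87, SE 0.051, adjusted p = 3.72e-07, centred -0.71). Snx16 read 10.7, 11.2 and 10.7 TPM in Aged_NZM and 19.5, 19.7 and 19.0 TPM in Aged (log2 change -0.78, SE 0.054, adjusted p = 1.13e-06, centred -0.62). Both were lower in every Aged_NZM library. Snx9 fell by 0.54, at 96.5, 102.5 and 95.5 TPM in Aged_NZM and 149.2, 140.1 and 140.3 TPM in Aged, and Snx10 (-0.55), at 60.8, 72.7 and 75.8 TPM in Aged_NZM and 106.4, 100.6 and 99.7 TPM in Aged, fell as well. Snx11, at 13.0, 12.9 and 13.1 TPM in Aged_NZM and 22.1, 21.5 and 18.9 TPM in Aged, fell by 0.64, and Snx19 fell by 0.54. Snx18 rose by 0.46, at 48.1, 47.8 and 49.3 TPM in Aged_NZM and 36.5, 34.0 and 34.7 TPM in Aged, Snx33 by 0.56, at 25.8, 25.0 and 25.7 TPM in Aged_NZM and 17.1, 16.9 and 17.0 TPM in Aged, and Snx29 by 0.39, at 4.78, 5.74 and 4.89 TPM in Aged_NZM and 3.83, 3.54 and 3.61 TPM in Aged. Snx13 read 25.6, 27.2 and 26.9 TPM in Aged_NZM and 22.9, 22.3 and 21.6 TPM in Aged. Snx21 read 26.4, 25.9 and 24.8 TPM in Aged_NZM and 21.1, 21.6 and 21.2 TPM in Aged. Both rose on both scales (0.25 for Snx13 and 0.26 for Snx21). Snx20 read 0.00, 0.00 and 0.00 TPM in Aged_NZM and 0.00, 0.06 and 0.00 TPM in Aged.

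The response to NZM was then compared between the cell types as the change of Aged_NZM against Aged minus the change of LPS_NZM against LPS, in a fit of all 15 libraries. The pretreatments differ, so cell type and pretreatment cannot be told apart. Of the 80 members, 21 were higher and 41 lower in this difference, against a background of 17.2% and 54.8% of 16696 genes (72.0% in either direction). After centring 41 were higher and 22 lower, against 39.9% and 28.7% (68.6% in either direction). Over the 72 members tested in both cell types, 19 were higher and 39 lower, against 16.9% and 65.7% of 11703 such genes (82.5% in either direction), and after centring 39 were higher and 21 lower, against 36.8% and 37.1% (73.9% in either direction).

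The 5 members with the largest negative differences were Snx5 (log2 change -4.25, SE 0.041, adjusted p = 1.08e-16, centred -3.63), Snx8 (-3.92, -3.30 centred), Snx29 (-3.39, -2.77 centred), Rab19 (-2.997, -2.37 centred) and Snx30 (-2.84, -2.22 centred). Snx5 and Snx8 fell with NZM in BMSC and rose in BMDM. Snx29 rose in both cell types, by 0.39 in BMSC and 3.79 in BMDM. Rab19 read 0.00, 0.33 and 0.00 TPM in Aged_NZM and 0.08, 0.00 and 0.13 TPM in Aged, too low for testing there, so its value restates the BMDM change and shows no difference between the responses. Snx30 read 7.72, 8.28 and 8.23 TPM in Aged_NZM and 9.27, 9.97 and 10.5 TPM in Aged and fell by 0.26, which was not called after centring. The 5 with the largest positive differences were Rab32 (log2 change 3.02, SE 0.039, adjusted p = 6.78e-16, centred 3.64), Snx18 (2.01, 2.63 centred), Snx10 (1.69, 2.31 centred), Snx20 (1.55, 2.17 centred) and Rab9 (1.38, 2.01 centred). Rab32, Snx18 and Rab9 rose in BMSC and fell in BMDM, and Snx10 fell in both. Snx20 was at or near 0 in BMSC, so its value too restates the BMDM change. Rab3d rose in both, and its difference was not called on the first scale (-0.055, adjusted p = 0.444), with 0.57 after centring.

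**Figure D4:**
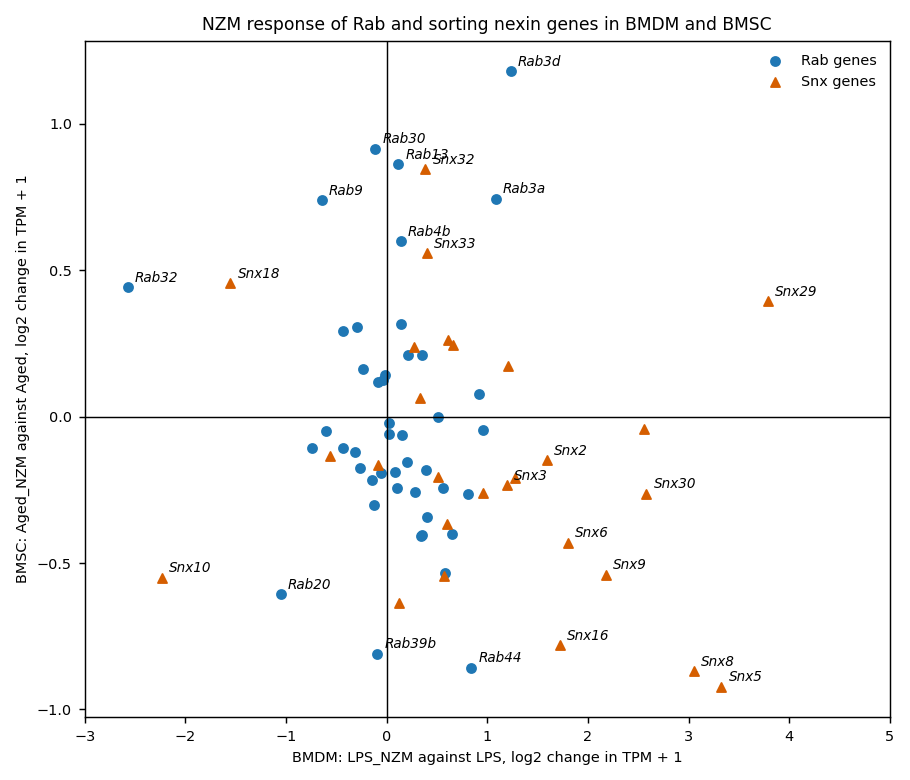
Log2 change in TPM + 1 with NZM for each member tested in both cell types, in BMDM (LPS_NZM against LPS, horizontal axis) and in BMSC (Aged_NZM against Aged, vertical axis); circles are Rab genes and triangles sorting nexins. Snx5 and Snx8 lie at the lower right, at 3.33 and 3.05 in BMDM and -0.92 and -0.87 in BMSC, and Rab32 lies at the upper left at -2.57 and 0.44.

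Levels also differed between the cell types whatever the treatment. In 25 of the 80 members every BMSC library lay above every BMDM library, against 38.8% of all 14725 genes, and in 31 every BMSC library lay below, against 22.5% of all genes. Cell type, pretreatment and the set of libraries cannot be told apart here, and no test was made. Of the genes named below, Snx20, Rab39 and Rab38 reached the limit of the set through BMDM alone and Rab36 through BMSC alone. Their differences are thus partly fixed by that limit, which all 14725 genes also passed. Snx20 was at 0.0 to 0.06 TPM in BMSC and 47.1 to 148.8 TPM in BMDM. Rab39 read 0.0 to 0.21 TPM in BMSC and 1.09 to 12.4 TPM in BMDM, and Rab38 0.0 to 0.08 TPM in BMSC and 2.27 to 5.93 TPM in BMDM. Rab27a read 0.46 to 1.46 TPM in BMSC and 8.37 to 9.89 TPM in BMDM, and Rab20 5.26 to 11.4 TPM in BMSC and 23.1 to 137.2 TPM in BMDM.

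Higher in BMSC were Rab36 (6.04 to 8.09 TPM against 0.17 to 0.76 TPM in BMDM), Rab4a (17.4 to 28.7 TPM against 1.17 to 4.91 TPM) and Rab13 (38.1 to 77.3 TPM against 7.96 to 13.9 TPM). Rab34 read 256.7 to 269.0 TPM in BMSC and 60.0 to 96.3 TPM in BMDM, Rab24 49.3 to 64.2 TPM in BMSC and 9.74 to 15.1 TPM in BMDM, and Rab9 92.1 to 170.2 TPM in BMSC and 28.6 to 51.0 TPM in BMDM. Rab18, which acts on lipid droplets and the endoplasmic reticulum, read 499.9 to 576.8 TPM in BMSC and 295.9 to 342.2 TPM in BMDM.

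Paralog shares also differed between the cell types. Rab8a made up 62.3% ± 2.27 of the summed Rab8 level in Aged_NZM and 70.4% ± 2.39 in Aged, and 28.3% ± 1.25 in LPS_NZM, 31.3% ± 1.37 in LPS and 31.2% ± 1.14 in Control. Rab5a made up 27.2% ± 1.19 of the summed Rab5 level in Aged_NZM and 25.5% ± 0.178 in Aged, above its share in each BMDM group. Rab11b made up 43.0% ± 0.599 of the summed Rab11 level in Aged_NZM and 38.4% ± 1.91 in Aged, against 26.9% ± 1.67 in LPS_NZM, 24.4% ± 0.884 in LPS and 26.1% ± 0.692 in Control. Over all 51 Rab members the summed level was 4475.7 ± 58.8 TPM in LPS_NZM, 4333.2 ± 7.46 TPM in LPS and 4798.9 ± 72.4 TPM in Control. Over all 29 sorting nexins it was 4172.7 TPM in LPS_NZM, 2276.5 TPM in LPS and 2735.1 TPM in Control, and 1418.4 TPM in Aged_NZM and 1730.3 TPM in Aged.

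**Figure D5:**
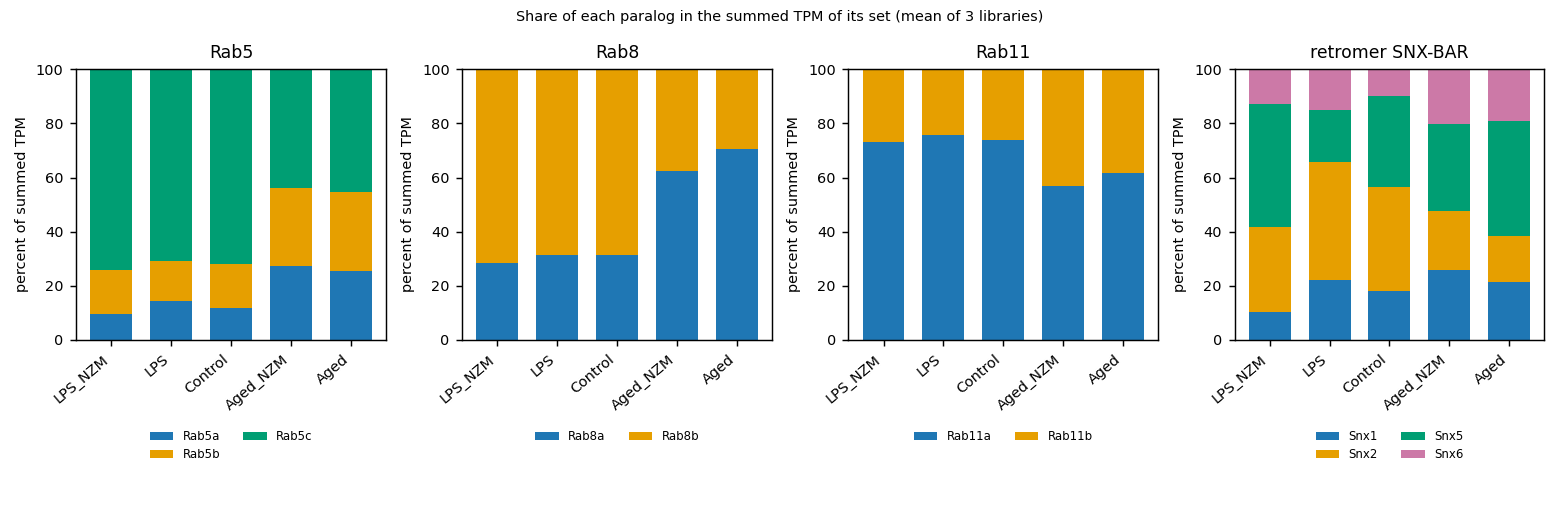
Mean share (percent of the summed TPM, 3 libraries per group) of each paralog in 4 sets, by group. Rab8b exceeds Rab8a in the 3 BMDM groups and is exceeded by it in both BMSC groups, and Snx5 is the largest part of its set in LPS_NZM at 45.5% against 18.9% in LPS and 33.7% in Control.

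The machinery around the Rab GTPases and nexins was examined in 8 lists with 71 genes. One list was named for CORVET and HOPS, the tethering complexes that bind Rab5 and Rab7. It also held Vps33b and Vipas39, which are not subunits of either. In this list 10 of 10 genes fell in LPS against Control and 10 of 10 rose in LPS_NZM against LPS. After centring 8 fell and 8 rose. Tgfbrap1, a CORVET subunit, averaged 29.3 TPM in LPS_NZM, 10.8 TPM in LPS and 32.9 TPM in Control. In retriever and the CCC complex, which recycle the cargo of Snx17, 13 of 14 genes fell with LPS and 13 rose in LPS_NZM against LPS, with 9 each after centring. Ccdc22 of the CCC complex averaged 40.7 TPM in LPS_NZM, 13.8 TPM in LPS and 32.9 TPM in Control. Against the background of 65.6% lower and 60.4% higher genes these 2 lists had median changes of -1.02 and -0.81 with LPS and 0.92 and 0.75 in LPS_NZM against LPS, beside -0.48 and 0.40 for all genes.

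Among 13 Rab5 effectors and exchange factors, 4 rose and 6 fell with LPS, and 7 rose and 4 fell in LPS_NZM against LPS. After centring these counts turned to 8 risen and 3 fallen with LPS, and 3 risen and 8 fallen in LPS_NZM against LPS, so the list has no settled direction. Appl2, an endosomal adaptor that binds Rab5, averaged 31.9 TPM in LPS_NZM, 5.71 TPM in LPS and 47.6 TPM in Control. In Aged_NZM against Aged, 3 rose and 9 fell, against 21.6% and 48.9% of all tested genes. After centring 3 rose and 7 fell, against 31.1% and 35.4%. Among the fallen was Rin1, a Rab5 exchange factor, at 25.9 TPM in Aged_NZM and 61.6 TPM in Aged. Another was Eea1, the early endosome tether, at 23.4 TPM in Aged_NZM and 52.2 TPM in Aged. Of 7 genes for Rab prenylation and extraction from membranes, 6 fell with LPS and 1 was not called, against 65.6% of all genes fallen, and after centring 2 rose and 2 fell. Rabggtb, a subunit of the Rab prenylating enzyme, averaged 72.3 TPM in Aged_NZM and 135.7 TPM in Aged. Of 9 exocyst genes, 1 rose and 7 fell with LPS and 6 rose and 2 fell in LPS_NZM against LPS, but after centring 3 rose and 3 fell with LPS and 4 rose and 4 fell in LPS_NZM against LPS. Of 5 Rab11 effectors 4 were tested, and of 9 Rab27 effectors 4 were tested, of which 3 fell with LPS, while after centring 2 rose and 1 fell. Beside these lists, 15.2% of all tested genes rose and 65.6% fell with LPS, and 60.4% rose and 16.9% fell in LPS_NZM against LPS. After centring the shares were 36.5% and 29.1% with LPS, and 29.8% and 35.3% in LPS_NZM against LPS.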

How the data were processed

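RNA of 15 libraries in 5 groups of 3 was sequenced after poly(A) selection with a stranded kit, per the labels' protocols. Expression was deposited by the authors as TPM per gene identifier in a single table. Per the submitters' processing notes, RSEM, StringTie, HISAT2 and fastp were used with build GRCm39; versions and roles are not stated, so the assignment of reads shared between paralogs and the use of strand in counting are not given in the sources used here. TPM keep no depth, so no counting interval can be given.

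Identifiers were named from a GENCODE table of an older build, which gave 52072 of the 56979 identifiers a symbol. Two-sided tests on log2(TPM + 1) were made by limma 3.58.1 (R 4.3.3; trended variance), and p-values were adjusted over all tested genes by Benjamini-Hochberg, with a threshold of 0.05. BMDM (9 libraries) and BMSC (6 libraries) were fitted apart, and the difference between NZM responses in all 15. Genes needed at least 1 TPM in 3 libraries. The procedure was checked on simulated data. Tables and figures were made with Python 3.11.15.

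By a fixed rule, library values were given for the 3 largest called rises and falls of each role class whose groups did not overlap and whose higher mean was at least 5 TPM, for 27 members set by name, and for the 5 largest differences between NZM responses in each direction. The rule also named up to 2 genes of each machinery list; only some of these are given, chosen after their values were seen, and by group means. Values of other members were added after they were seen. The members, role classes and lists were chosen with earlier results of these data known. Median centring, quantile normalisation, a pseudocount of 0.1, other filters, other sets of libraries, no trend, library weights, a replicate block and leaving out each library were tried. Deviations of same-numbered libraries correlated at -0.0756 to 0.199. Differently numbered libraries were not compared, so whether replicate numbers pair the libraries was not settled.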

Additional observations from a re-analysis of the deposited data

Results flagged for a closer look

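The difference between the NZM responses (Aged_NZM against Aged minus LPS_NZM against LPS, log2 scale) was called in limma for each of the following 8 members, which were among the 5 largest in either direction and were tested in both cell types. The 2 cell types had different pretreatments, so cell type and pretreatment cannot be told apart.

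Snx5, a coat protein of retromer tubules, had a difference of -4.25, and Snx8, a nexin of early endosomes, had -3.92. Snx29 had -3.39 and Snx30, a recycling nexin, had -2.84. In the other direction, Rab32, of lysosome-related organelles, had a difference of 3.02 and the endocytic nexin Snx18 had 2.01. Snx10 had 1.69 and Rab9, which acts from late endosomes to the Golgi, had 1.38.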

How the results depend on the processing

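Scaling and a minimum size of change both moved the counts of members called. With median centring, LPS against Control gave 41 risen and 24 fallen members, LPS_NZM against LPS 23 risen and 38 fallen, LPS_NZM against Control 20 fallen, Aged_NZM against Aged 18 fallen, and the difference between NZM responses 41 higher and 22 lower. Quantile normalisation gave 25 risen in LPS against Control, 21 fallen in Aged_NZM against Aged and 37 higher in the difference between responses. With a log2 change of at least 1 also required, 4 rose and 17 fell in LPS against Control, 15 rose and 5 fell in LPS_NZM against LPS, 5 rose and 3 fell in LPS_NZM against Control, 1 rose and 0 fell in Aged_NZM against Aged by limma (36 fell without that requirement), and 6 were higher and 20 lower in the difference.

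The sign of single members also turned with scaling. Over all tested members, 15 called lower in LPS against Control were called higher after centring. In LPS_NZM against LPS 8 called higher were then called lower, and in the difference between NZM responses 8 called lower were then called higher. The list that follows holds only members named by the fixed rule in each comparison, so others that turned, such as Rab29 and Rab8b, are left out. After centring, the LPS against Control change was 0.40 for Rab11a, 0.27 for Rab11b, 0.41 for Rab1a, 0.023 for Rab23, 0.54 for Rab31, 0.014 for Rab34, 0.29 for Rab4b, 0.26 for Rab5b, 0.43 for Rab5c, 0.079 for Rab7, 0.11 for Snx27 and 0.20 for Snx6, and after quantile normalisation 0.095 for Rab11b and 0.054 for Rab23. For LPS_NZM against LPS it was -0.44 for Rab11a, -0.25 for Rab11b, -0.31 for Rab2a, -0.44 for Rab31, -0.062 for Rab35, -0.27 for Rab5b, -0.38 for Rab5c, -0.074 for Rab7 and -0.061 for Snx33 after centring, and -0.14 for Rab11b and -0.023 for Snx33 after quantile normalisation. For LPS_NZM against Control, Rab7 was at 0.0051 after centring. For Aged_NZM against Aged it was 0.053 for Rab10, 0.14 for Rab31, 0.11 for Rab5a, 0.0031 for Rab5b, 0.0097 for Snx2 and 0.025 for Snx27 after centring, and 0.0615 for Rab10, 0.14 for Rab11a, 0.034 for Rab21, 0.17 for Rab31, 0.11 for Rab5a, 0.0081 for Rab8a, 0.0335 for Snx2 and 0.060 for Snx27 after quantile normalisation. These settings by construction take out a shift common to most genes.

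With the replicate number as a block, 12 rose and 49 fell in LPS against Control, 43 rose and 18 fell in LPS_NZM against LPS, 17 rose and 28 fell in LPS_NZM against Control, 22 rose and 35 fell in Aged_NZM against Aged, and 20 were higher and 40 lower in the difference. Of the members described by name, the block ended the calls of Rab12, Rab24, Rab4a and Rab5b in LPS_NZM against Control and of Rab10 in Aged_NZM against Aged. Whether the numbers pair the libraries was not settled.

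Leaving out each library in turn gave 11 to 12 risen and 47 to 49 fallen members in LPS against Control, 37 to 44 and 16 to 18 in LPS_NZM against LPS, 17 to 19 and 22 to 32 in LPS_NZM against Control, 18 to 22 and 32 to 36 in Aged_NZM against Aged, and 19 to 22 higher and 39 to 42 lower in the difference. A library left out also ended calls in LPS_NZM against LPS (Rab2b and Rab6a without LPS replicate 2, at adjusted p = 0.0683 and 0.0627, besides Rab1a and Rab4a). In LPS_NZM against Control it ended that of Rab8b without Control replicate 1 (adjusted p = 0.0529). Besides Rab4a, the calls of Rab5b, Rab7, Rab11a, Rab12, Rab22a and Rab24 there were lost without certain libraries (adjusted p = 0.0508 to 0.151). That of Rab5b held only without LPS replicate 3, and that of Rab12 only without Control replicate 2 or LPS replicate 3. Over the values for single genes, 4756 alternatives kept direction and call, 312 lost the call, 13 gained one and 40 turned round. This tally does not measure how steady the results are. The setting with only members of mean TPM of at least 5 reused the main fit and could not change a value. Of the lost calls, 174 came from the added minimum size of change. TPM hold no depth, so the counting error of low members is unknown.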
